A study of Drosophila melanogaster with 3 samples.

Results

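The nuclear pore complex genes of Drosophila melanogaster were examined for promoter binding of CG30403, a fly protein tagged for chromatin immunoprecipitation and sequencing (ChIP-seq). They were chosen by name from a list of 33 symbols covering nucleoporins and a few partners, and 32 of these symbols were found among the 13945 protein-coding genes of the annotation. The symbol Mtor was not found, and the gene it stands for is described with the chromosome arms. The data come from 1 group of 3 biological replicates of whole embryos of both sexes, aged 0 to 24 hours. The embryos carried CG30403 with green fluorescent protein at its C terminus, and an antibody against the tag was used for the precipitation. All replicates share the transgenic line, and whole embryos mix all cell types of that age range, so a peak cannot be assigned to a tissue. A gene was called promoter-bound when a summit of the authors' final ("optimal") peak list lay within 500 bp of any of its transcription start sites (TSSs). Signal is the authors' own score for a peak, which serves here to order the peaks of a list, rank 1 being the strongest.

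The nuclear pore complex is the channel through which proteins and RNAs pass the nuclear envelope. It is built from ring-shaped scaffolds (the Y complex and the inner ring), a central channel lined by phenylalanine-glycine repeats, membrane anchors, cytoplasmic filaments and a nuclear basket. Soluble receptors such as importins and exportins carry cargo through it, with direction set by the small GTPase Ran. In fly cells some nucleoporins, among them Nup98, have also been found on chromatin away from the pore.

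In the optimal list 18 of 32 were bound (56.2%), against 30.2% of all protein-coding genes (4205 of 13945). The strongest 7827 regions of each replicate, a list as long as the optimal one, gave 18, 19 and 15 bound members in replicates 1, 2 and 3. That is 54.2% ± 6.51 of the members and 29.5% ± 1.23 of all protein-coding genes (SD, n = 3 replicates each), with 28.1%, 30.0% and 30.4% of all genes in replicates 1, 2 and 3. The members' share was above the share of all genes in each replicate, and it was lowest in replicate 3. In the optimal list and in every replicate's top list, 12 of 32 members were bound, against 23.7% of all genes. The shares depend on how far down the lists peaks are taken: with the stronger 50% of optimal peaks 8 of 32 members were bound, against 19.7% of all genes, and with replicate lists of 50% of the length the mean share was 27.1%, against 19.0%. No test of these differences was made, because the genes were named with results of these data known.

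**Figure D1:**
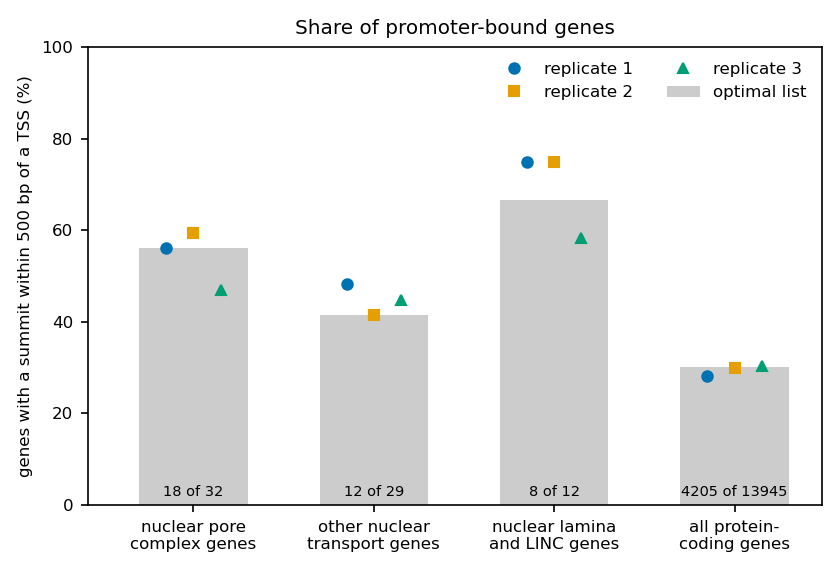
Share of genes (%, vertical axis) with a summit within 500 bp of a TSS, in the optimal list (bars) and in the top list of each replicate (points), for the nuclear pore complex genes, other nuclear transport genes, nuclear lamina and LINC genes, and all protein-coding genes. The nuclear pore complex genes reached 56.2% in the optimal list, and all protein-coding genes 30.2%.

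The Y complex, the scaffold that forms the outer rings of the pore, included the 3 strongest promoter peaks of all members, at Nup37, Nup98-96 and Nup160. Of its 10 genes, 8 were bound in the optimal list, against 30.2% of all protein-coding genes. These 8 were also in the top list of every replicate (replicate 3 had Nup44A as well, at rank 7784). Of all genes, 23.7% were bound in the optimal list and in every top list. Nup37 (FBgn0039301), a small subunit, ranked 399, 279 and 303 in replicates 1, 2 and 3, with a peak at chr3R:25247339-25247891 (dm6, signal 1132) whose summit lay 105 bp upstream of its TSS. Nup98-96 (FBgn0039120) encodes a precursor that is cut into the repeat protein Nup98 and the scaffold protein Nup96. Its peak (chr3R:23781380-23781833, signal 874) ranked 1013, 478 and 454 in replicates 1, 2 and 3. The summit lay 46 bp downstream of its TSS, in the 5' untranslated region. Among the strongest summits of the 18 bound members, measured to the nearest TSS, it was the only downstream one, though Nup62 and Ran have other start sites further upstream and Nup37 has a weaker summit (signal 411) in its own 5' untranslated region.

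Nup160 (chr2L:11123521-11123848, signal 642), an arm subunit of the Y complex, ranked 1115, 1165 and 731 in replicates 1, 2 and 3. Nup133 (chr3R:22690336-22690642, signal 527), a subunit of the stem, ranked 1138, 987 and 2451. These 4 peaks thus stood in the upper part of every replicate's list. The peaks of Elys, Sec13 and Nup43 were of middle strength, and that of Nup107 was weak. Elys, which in vertebrate cells brings the Y complex to chromatin when pores form after mitosis, had a signal of 372 and ranks of 3397, 2478 and 1845. Sec13, which also serves in the COPII coat of secretory vesicles, had a signal of 350 and ranks of 1293, 2231 and 3567. Nup43 ranked 1508, 2916 and 5124 (signal 293). Nup107, the partner of Nup133 in the stem, was weakest, with ranks of 6598, 7049 and 4104 and a signal of 193. The Y complex genes with no optimal summit in the window were Nup75 and Nup44A.

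The sequences below are shown because the peaks of these genes sit on them: the bases within 50 bp of the optimal summit on the Release 6 genome (dm6), read 5′ to 3′ on the strand of the named gene. Bases of annotated exons were left out. The first 4 belong to the strongest peaks apart from Nup98-96, whose window lies almost wholly in an exon, and the others carry motif matches described further on. The positions, with the strand read, are Nup37 chr3R:25247515-25247603 (plus), Nup160 chr2L:11123681-11123776 (plus), Nup93-2 chr3R:14898387-14898487 (minus) and Nup133 chr3R:22690443-22690543 (plus) for the strong peaks. For the motif matches they are Sec13 chr3R:23356187-23356277 (plus), emb chr2L:8403373-8403446 (plus), Nup205 chrX:19852068-19852168 (plus) and Nup358 chr3R:25249272-25249347 (plus), and Aladin chrX:9273256-9273356 (plus), Nup58 chr3R:19644614-19644714 (plus) and Nup153 chrX:16598719-16598819 (plus). Capitals mark matches to the 8 motifs searched, on either strand.
Nup37: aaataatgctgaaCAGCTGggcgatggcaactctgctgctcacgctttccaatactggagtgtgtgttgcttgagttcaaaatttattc
Nup160: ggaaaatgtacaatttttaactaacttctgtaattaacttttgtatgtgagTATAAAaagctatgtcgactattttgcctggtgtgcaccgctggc
Nup93-2: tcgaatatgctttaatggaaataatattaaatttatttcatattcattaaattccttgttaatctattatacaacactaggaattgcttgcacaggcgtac
Nup133: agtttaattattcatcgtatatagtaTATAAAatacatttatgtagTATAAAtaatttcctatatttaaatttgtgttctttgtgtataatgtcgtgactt
Sec13: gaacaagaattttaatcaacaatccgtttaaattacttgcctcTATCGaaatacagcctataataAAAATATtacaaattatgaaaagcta
emb: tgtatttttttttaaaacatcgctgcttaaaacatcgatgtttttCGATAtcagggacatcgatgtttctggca
Nup205: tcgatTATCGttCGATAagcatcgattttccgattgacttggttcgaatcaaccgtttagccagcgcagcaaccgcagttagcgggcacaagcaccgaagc
Nup358: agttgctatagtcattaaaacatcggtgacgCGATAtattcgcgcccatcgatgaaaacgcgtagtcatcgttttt
Aladin: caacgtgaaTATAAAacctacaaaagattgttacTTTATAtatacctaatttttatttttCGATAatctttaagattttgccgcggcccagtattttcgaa
Nup58: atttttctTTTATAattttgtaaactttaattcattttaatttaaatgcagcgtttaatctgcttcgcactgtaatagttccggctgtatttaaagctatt
Nup153: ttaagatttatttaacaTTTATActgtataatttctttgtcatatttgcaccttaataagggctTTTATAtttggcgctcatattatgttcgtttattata

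Several of these windows are rich in A and T. The Nup133 window, at 19.8% GC, was the lowest of the 18 bound members, and the highest were those of Nup205 and Ran, at 50.5% each. Over the windows of the 18 members the median GC content was 35.1%, against 32.7% at all 2953 promoter summits.

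The inner ring, the scaffold next to the membrane, was bound at 2 of 6 genes (33.3%), close to the 30.2% of all protein-coding genes. Nup93-2 had a strong peak (chr3R:14898279-14898558, signal 636; ranks 1438, 652 and 1449 in replicates 1, 2 and 3), with its summit 65 bp upstream of the TSS. Its paralogue Nup93-1 on the X had no optimal summit within 1914 bp of its TSS. In the window of Nup93-1, replicate 1 listed no region, and replicates 2 and 3 listed regions ranked 15131 and 24427. The paralogues therefore stood apart in every replicate. Nup205, a large inner ring scaffold protein, had a weak peak (chrX:19851876-19852359, signal 186) with ranks of 7275, 6627 and 4068. Nup154, the fly counterpart of mammalian Nup155, was near the limit: it ranked 5624 and 5816 in replicates 1 and 2 but 23644 in replicate 3, and its pooled region ranked 8126. Nup35 ranked 9672, 6319 and 24470. Nup188 had no listed region in its window in any replicate or in the pooled list, the only member of which that was true.

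Of the 3 central channel genes, Nup58 and Nup62 were bound and Nup54 was not, where 30.2% of all protein-coding genes were bound. Nup58 (signal 192) ranked 6954 and 2394 in replicates 1 and 2. In replicate 3 it was outside the top list, at rank 23841, with a summit 374 bp away from the optimal one. Nup62 (signal 136), whose protein fills the channel with repeats, ranked 6384, 12518 and 6343, and its summit lay 6 bp upstream of a TSS. Nup54 had regions ranked only 23061 and 17334 in replicates 1 and 3, and none in replicate 2.

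Of the 9 genes of the filaments, basket and membrane anchors, 3 were bound (33.3%), close to the 30.2% of all protein-coding genes. Gp210, Nup214, Rae1 and Nup50, all unbound, are on 2R, an arm with few bound members that is described below. The peaks of the 3 bound genes, with signals of 134 to 160, were below the median of 327 of all bound genes. Nup358 was the only bound gene of the 4 cytoplasmic filament genes (chr3R:25249080-25249563, signal 160). It encodes the large filament protein that binds Ran, and ranked 8000, 5584 and 8719, so that only replicate 2 had it in its top list. Nup214, mbo (the fly Nup88) and Rae1, an mRNA export factor, had no optimal summit in the window and no region in any top list. Nup153 of the nuclear basket had a signal of 144 and ranks of 4658, 7698 and 10797. The Nup153 summit lay 472 bp upstream of its TSS, in an intron of CG9784. Nup50, which works with Nup153, ranked 17589 and 22421 in replicates 2 and 3 and was not listed in replicate 1. Among the membrane anchor genes, Aladin, which is held at the pore by the membrane protein Ndc1, had the weakest promoter peak of all bound members (signal 134; ranks 4166, 7599 and 10207). The membrane proteins Ndc1 and Gp210 were not bound. Gp210 ranked 7350, 8670 and 10961, on either side of the limit of 7827.

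All 3 soluble transport genes on the list were bound, with moderate to weak peaks, where 30.2% of all protein-coding genes were bound. The exportin gene emb (chr2L:8403181-8403664, signal 230) ranked 2742, 4059 and 5182 in replicates 1, 2 and 3. Fs(2)Ket, which encodes importin beta, ranked 5175, 5100 and 3374 (chr2L:20734095-20734578, signal 223). Ran ranked 18598, 6359 and 5701 (signal 154), so replicate 1 did not have it in its top list. The Ran summit lay 355 bp upstream of an internal TSS, in an intron of Ran. The gene nudC, which encodes a partner of the dynein motor and is not a nucleoporin, had no optimal summit in the window. It had 2 optimal summits further inside, with signals of 379 and 208, in introns of nudC and CG9674. Sec13 likewise had 2 intronic summits beside its promoter peak, 565 and 772 bp from its TSS, with signals of 376 and 162.

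**Figure D2:**
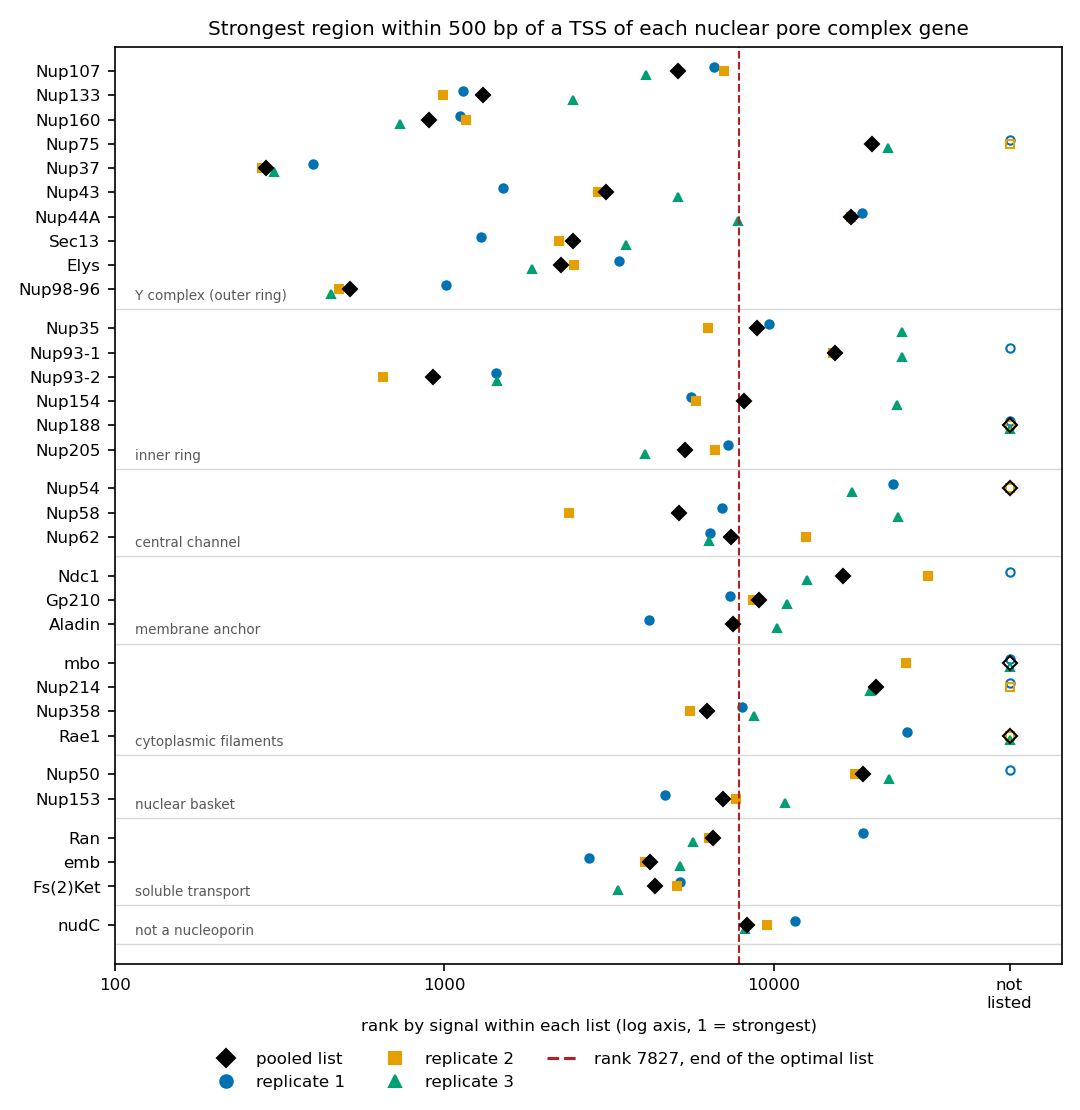
Rank by signal (horizontal log axis, 1 is the strongest) of the strongest region within 500 bp of a TSS of each nuclear pore complex gene in the pooled list and in each replicate, grouped by place in the pore. Open symbols at the right mark genes with no region in that list, and the dashed line is rank 7827, the end of the optimal list. Nup37 lies furthest to the left, and Nup188 has open symbols throughout.

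The ranks of the 18 bound members went together between replicates, with Spearman correlations of 0.75, 0.73 and 0.75 for replicates 1 and 2, 1 and 3, and 2 and 3. These are descriptions over genes whose peaks were taken from the pooled alignments of the same replicates. Of the 18, 12 were in the top list of all 3 replicates, 5 in 2 of them (Nup58, Nup62, Aladin, Nup153 and Ran), and Nup358 in 1. For the 12, the summits of the replicates lay within a median of 56.0 bp of each other, from 6 bp at Elys to 220 bp at emb, against a median of 49.0 bp for 3307 bound genes. Without replicate 1 the medians were 14.0 bp for 13 members and 21.0 bp for all such genes, so the order of members and all genes turned. Without replicate 2 both were 34.0 bp, and without replicate 3 they were 30.0 and 32.0 bp.

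Many of the unbound promoters held a weaker region. The optimal list is identical to the 7827 strongest regions of the pooled list, so a promoter without an optimal summit can still have a pooled region further down. Such a region lay within 500 bp of a TSS in 10 of the 14 unbound members, at ranks from 8126 to 20451, and in 32.6% of all unbound genes. With the bound ones, 28 of 32 members had a pooled region in the window, against 53.0% of all protein-coding genes. The members just outside the optimal list were Nup154 (pooled signal 124), nudC (121), Nup35 (112) and Gp210 (110), and the weakest inside were Aladin (134) and Nup62 (136). The window also sets the calls of some members. With 250 bp, 14 of 32 were bound (24.4% of all genes), without Nup153 (472 bp), Nup58 (362 bp), Ran (355 bp) and Fs(2)Ket (272 bp). With 1000 bp, 20 were bound (34.0% of all genes), with Nup44A (595 bp) and Nup35 (994 bp) added. The summit near Nup44A lay in an intron of ACC.

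Many of the bound nuclear pore complex genes had a neighbour's start site near their promoter peak. For 15 of 18, the start site of a further protein-coding gene was at most 500 bp from the summit, against 59.4% of all bound genes. With a limit of 250 bp the count was 9 of 18, against 47.3% of all bound genes, so the difference depends on that limit. The neighbour was divergent in all 15, and the TSSs of the pair were 26 to 640 bp apart (median 214 bp). In 11 of the 15 pairs the summit lay between the closest pair of start sites. The summit was nearer to the TSS of the nuclear pore complex gene in 7 pairs and to the neighbour's in 8, so these peaks do not tell which gene they belong to.

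The strongest peak illustrates this. It lay 105 bp from the TSS of Nup37 and 39 bp from that of RpS27, a ribosomal protein gene. Nup133 shared its peak with wfs1, the fly wolframin gene, at 114 and 113 bp from the TSSs. Nup160 shared with Csl4, an RNA exosome subunit (46 bp from Nup160, 164 bp from Csl4), and Sec13 with ATPsynCF6, an ATP synthase subunit (41 bp from Sec13, 173 bp from ATPsynCF6). Elys and Ranbp21, the exportin 5 gene, have TSSs only 36 bp apart, and their common summit lay inside the 5' untranslated region of Ranbp21, 147 bp downstream of its TSS. That pair joins a nucleoporin with a transport receptor. Nup98-96 shared with mbc, a gene of myoblast fusion, and here the summit was nearer to Nup98-96 (46 bp, against 190 bp from mbc).

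The other pairs were Nup43 with WRNexo, Nup93-2 with CG3817, Nup205 with pico, and Nup58 with Vha13, a vacuolar ATPase subunit. Nup62 was paired with CG7997, Aladin with Cfp1, Nup153 with CG9784, emb with fy, and Fs(2)Ket with TM9SF2. At Fs(2)Ket the summit was 28 bp from the TSS of TM9SF2 and 272 bp from its own. Only Nup107, Nup358 and Ran had a promoter peak with no other protein-coding TSS within 500 bp, with signals of 193, 160 and 154. Nup358 lies just downstream of Nup37 on 3R, and its own peak was separate from the Nup37 peak.

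**Figure D3:**
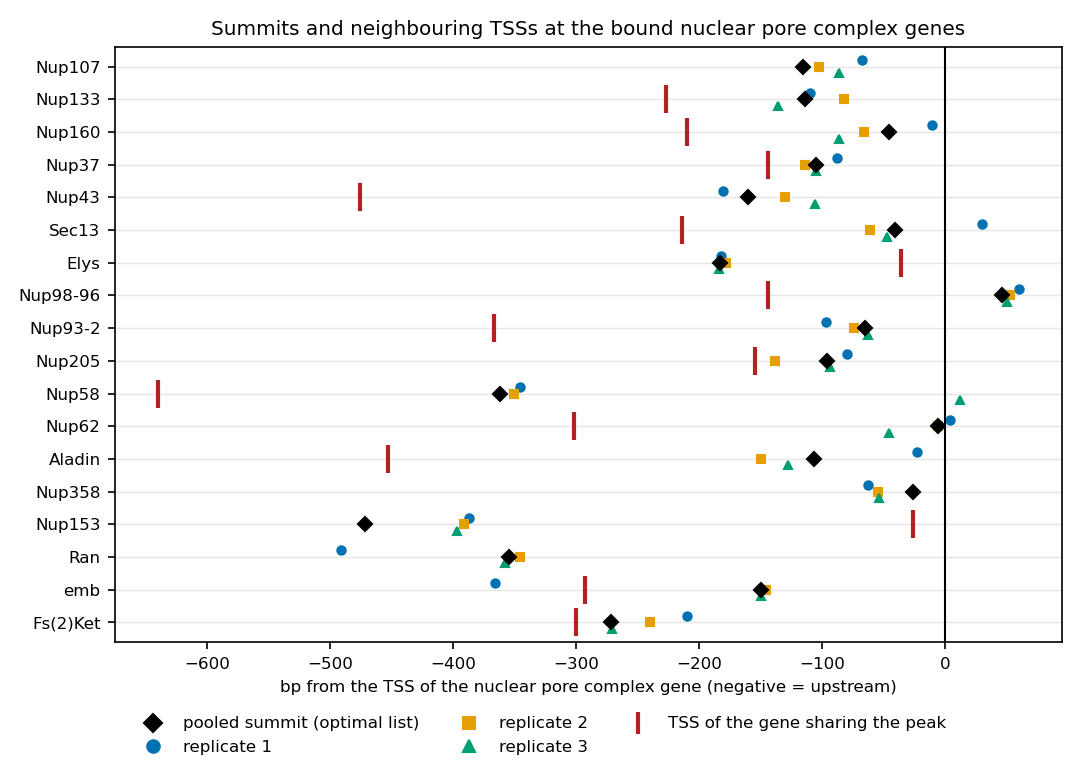
Summits at the 18 bound nuclear pore complex genes, in bp from the TSS of the gene (horizontal axis, negative is upstream): pooled summit (black), replicate summits (coloured) and the TSS of the gene that shares the peak (red bar). In 11 pairs the pooled summit lies between the closest pair of start sites. Nup62 is not among them, since it has 2 TSSs and the one plotted at 0 is not the one closest to CG7997. At Nup153 the red bar is the CG9784 TSS closest to that of Nup153, not the CG9784 TSS 273 bp from the summit.

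Close neighbours are common among these genes. Of the 32 members, 28 have another protein-coding TSS within 1000 bp, and 17 of these were bound, against 47.9% of all genes with such a neighbour. Of the 4 others (Ndc1, mbo, Nup358 and Rae1), 1 was bound, Nup358, against 16.8% of all genes with isolated TSSs. The lower background of isolated genes applies to few members, and how far close neighbours set the members' overall share was not tested. The strongest summits were upstream of the nearest TSS at 17 of 18 bound members and at 90.9% of all bound genes. They lay within 200 bp of it at 14 of 18 and at 66.6%.

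The peaks of the nuclear pore complex genes ranked from 287 to 7505 in the optimal list, with signals of 134 to 1132, where the list as a whole ran from 129 to 6456. The median signal was 226 for the 18 bound members and 327 for all 4205 bound genes. That order depends on the window: within 250 bp the medians were 322 for 14 members and 316 for all bound genes. Nup37 had a higher signal than 92.8% of bound genes, Nup98-96 than 87.7%, Nup160 than 79.2% and Nup93-2 than 78.9%. These 4 peaks were among the 1000 strongest, which held the promoter peaks of 22.9% of all bound genes. At the low end, 5 members lay among the weakest 1956 peaks of the optimal list (27.8% of the bound members, against 15.7% of all bound genes): Nup358, Ran, Nup153, Nup62 and Aladin.

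**Figure D4:**
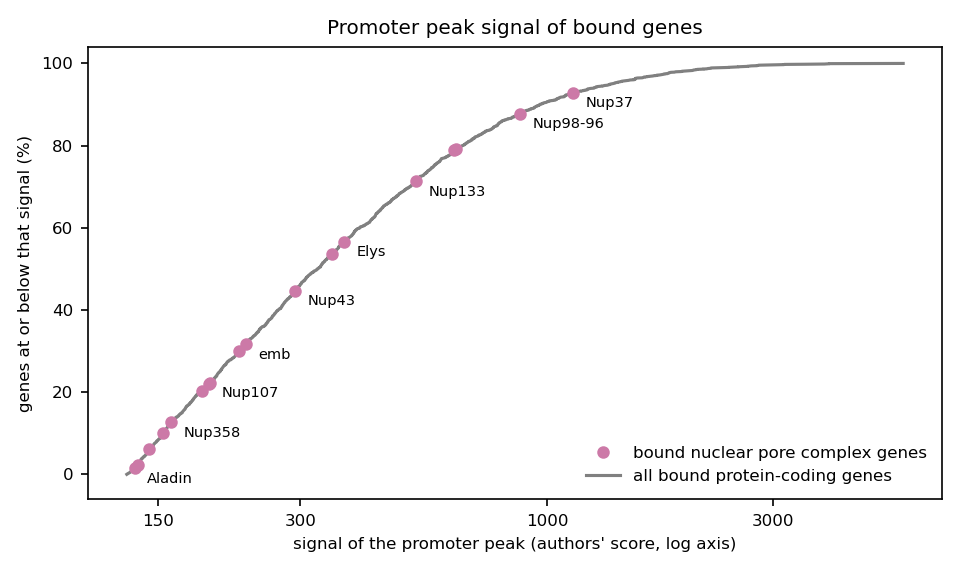
Promoter peak signal (authors' score, horizontal log axis) of the 18 bound nuclear pore complex genes (points), set on the cumulative share of all 4205 bound protein-coding genes at or below that signal (line; %, vertical axis). The points run from Aladin at 134 to Nup37 at 1132.

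The bound members were unevenly spread over the chromosome arms. On 2R, 1 of 9 members was bound (Nup62), against 28.3% of all genes there. On the other arms 17 of 23 were bound, against 30.6% of all genes. The arms 2L, 3R and X had 4 of 5, 8 of 10 and 5 of 7 members bound, and the single member on 3L, nudC, was not. The replicate top lists had 2, 0 and 2 of the 9 members on 2R in replicates 1, 2 and 3, and 16, 19 and 13 of the 23 others. This split by arm was noticed in the data and was not tested. The unbound members on 2R were Nup75, Nup44A, Nup188, Nup54, Gp210, Nup214, Rae1 and Nup50. They come from the Y complex, inner ring, central channel, membrane anchors, cytoplasmic filaments and nuclear basket. Nup75 and Nup44A are the only unbound Y complex genes, and the 8 bound ones are on other arms. How place in the pore and chromosome arm each relate to binding was not tested.

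The listed symbol Mtor stands for Megator, the fly Tpr protein of the nuclear basket. Its gene is named Mgtor in the annotation (chr2R:11852617-11861202) and was not counted above. In the window of Mgtor the 3 replicates had regions ranked 7727, 6719 and 5704, all within the top lists, but the pooled list had none, and the nearest optimal summit was 12666 bp away. In all, 52, 42 and 35 of the 7827 strongest regions of replicates 1, 2 and 3 had no pooled summit within 1000 bp. Of these, 18, 16 and 15 were on 2R (34.6%, 38.1% and 42.9%), against 17.8%, 17.4% and 18.0% of all top regions. With Mgtor, 1 of 10 genes on 2R would be bound in the optimal list, and 3, 1 and 3 of 10 in the top lists of replicates 1, 2 and 3. Whether regions are missing from the pooled and optimal lists used here was not tested, so an unbound call on 2R says only that these lists hold no summit there.

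**Figure D5:**
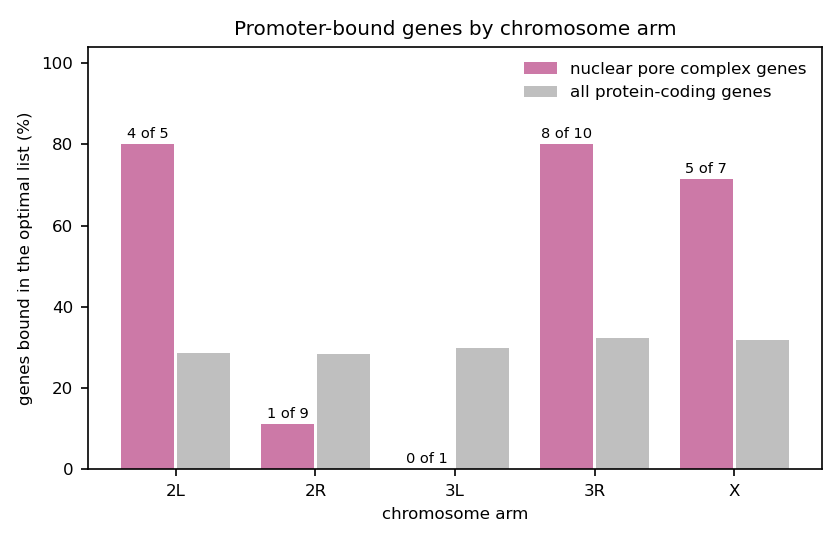
Share of genes bound in the optimal list (%, vertical axis) on each chromosome arm, for the nuclear pore complex genes and for all protein-coding genes, with the members' counts above the bars. On 2R 1 of 9 members was bound, while the share of all genes was 28.3% there and 30.6% on the other arms.

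Known promoter motifs and an A-rich 7-mer (AAAATAT) were searched on both strands within 50 bp on either side of the summits. The TATA box TATAAA was found at 7 of 18 members (Nup133, Nup160, Sec13, Nup98-96, Nup58, Aladin and Nup153) and at 22.2% of the 2953 promoter summits. At Sec13 and Nup98-96 the match includes bases of annotated exons, so it is not in the sequences printed above. CGATA, a core of BEAF-32 sites, was found at Sec13, Nup205, Aladin, Nup358 and emb, 5 of 18, and at 25.4% of all promoter summits. The E-box CAGCTG was found at Nup37 and Fs(2)Ket (4.98% of all promoter summits), and GAGAG, a match to GAGA factor sites, at Elys and Fs(2)Ket (7.31%). GGTCACAC, a part of core promoter motif 1, was found at Nup62 (2.10%), the initiator core TCAGT at Elys (15.8%) and the 7-mer AAAATAT at Sec13 (17.2%). The windows of emb, Nup358 and Nup205 also held ATCGAT, a palindrome noticed in the printed sequences, which is found at 11.5% of all promoter summits. A match is a description of the letters, not of a bound site.

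The DNA replication-related element TATCGATA, which contains CGATA and ATCGAT and is bound by the factor Dref, was found in no summit window of a bound member and at 4.64% of all promoter summits. It was more common at the unbound ones. In the 250 bases before and 50 after the TSS furthest upstream, it was found at 1 of 18 bound members (Nup58) and at 5 of 14 unbound members (Nup75, Nup188, Nup54, Gp210 and Nup50). Over all protein-coding genes the order was the other way, with 15.7% of bound and 6.64% of unbound promoters. All 5 unbound members with the element are on 2R, where 15.8% of all bound and 6.12% of all unbound promoters hold it, so the element and the arm cannot be told apart in these members.

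Other genes of nuclear transport and of the nuclear envelope gave counts to set beside these. Of 29 further nuclear transport genes, 12 were bound (41.4%, 44.8% ± 3.45 over the replicates, SD, n = 3). The strongest peaks were those of RanGAP, which activates the GTPase of Ran (signal 1341), Tnpo-SR, an importer of splicing factors (974), and Tnpo, a transportin (945). Ranbp21 counts in this list by the peak it shares with Elys. Of 12 genes of the nuclear lamina and the LINC complex, which links nucleus and cytoskeleton, 8 were bound (66.7%, 69.4% ± 9.62 over replicates, SD, n = 3). Msp300 (signal 1752), klar (546) and kuk (391) led them. Both lists are small, and no test was made between them and the nuclear pore complex genes.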

How the data were processed

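Region lists in narrowPeak format were deposited by the authors. Per the deposited text notes, the replicate lists (peaks and background regions) come from each replicate and a shared control, the pooled list from all 3 replicates, and the optimal list from these by the irreproducible discovery rate procedure. How reads were aligned and peaks called is not given in the sources used here. Signal, a score the authors gave each region, has no stated scale. Lists on dm3 were not used, and read depth is unknown. Per the labels, chromatin was sonicated to 200 to 800 bp.

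Summits (region start plus deposited offset) were set against the TSSs of protein-coding genes of Ensembl release 115 on 2L, 2R, 3L, 3R, 4 and X. The strongest summit in the window was taken as the gene's peak, and the nearest TSS gave its distance. Sequence came from RefSeq's Release 6 genome, whose arms hold all dm6 regions. Python 3.11.15, numpy 2.4.6, pandas 2.3.3 and scipy 1.17.1 were used, and the promoter call was tested on simulated data. Members, gene lists and motifs were chosen with earlier results of these data known, and the text names every member, the genes sharing their peaks and the 3 strongest bound genes of each other list. Of the list of other transport genes, 3 symbols were not found. Alternatives were other windows, shorter or full lists, isolated TSSs and leaving out each replicate.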

Additional observations from a re-analysis of the deposited data

How the results depend on the processing

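The count of 18 bound members was between 14 and 20 with windows of 250 and 1000 bp, any overlap of region and window, or 1 summit per merged region. Over these settings the share of all genes was 24.4% to 34.0%. With Mgtor added, nudC left out, or nudC and the soluble transport genes left out, the count was 15 to 18 (30.2% of all genes). It was 8 with the stronger 50% of peaks (19.7% of all genes) and 1 of 4 among genes with isolated TSSs (16.8%). The count bound in the optimal list and in every replicate was 13 to 15 when a replicate was left out, and 7 with top lists of 50% of the length (15.1% of all genes). The mean share over replicates was 51.6% to 57.8% when a replicate was left out, 84.4% with full lists (52.4% of all genes), 27.1% with lists of 50% of the length (19.0%) and 45.8% with a window of 250 bp (23.9%). The median signal was 322 with a window of 250 bp. Partners within 250 bp were found for 9 bound members (47.3% of all bound genes). The median distance between replicate summits was 14.0 to 34.0 bp with 2 replicates (21.0 to 34.0 bp for all such genes). The genes counted also changed with the replicate left out. With 25 bp on both sides, 9 of 18 members held at least 1 motif (42.6% of all promoter summits), instead of 14 of 18 (67.1%). Mgtor, nudC, soluble genes and the motif windows were alternatives chosen after seeing the data. The cause of the changes was not tested. No paired analysis was possible because the series has 1 group. With no read counts, weak regions cannot be told from absent ones, and 3 replicates limit every SD.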
